A study of Homo sapiens with 4 samples.

Results

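Claudins are the membrane proteins that form the strands of tight junctions, the seals between neighbouring epithelial cells. Expression of 7 of them (CLDN1, CLDN2, CLDN3, CLDN4, CLDN7, CLDN12 and CLDN15) was followed in T84, a line from a human colorectal carcinoma whose cells grow into tight, polarised layers on permeable filters. The members were all probe sets that the platform annotation assigns to 1 of these 7 symbols alone, which gave 11 of the 54675 probe sets on the Affymetrix U133 Plus 2.0 array. Of all probe sets, 41097 carried a single gene symbol, and these named 19775 genes.

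The series holds 4 arrays, 1 for each group, all from T84 cells on filters with 0.4 µm pores that had been transfected with 15 pmol of RNA. Whether that amount is the total of a miRNA mix or of each miRNA is not stated. The 4-miRNA array came from cells given miR-451, miR-338-3p, miR-33a and miR-210 together, and the 2-miRNA array from cells given miR-451 with miR-338-3p (microRNAs, or miRNAs, pair with matching messenger RNAs and reduce their amount or their translation). Both were collected on day 5. The control arrays came from cells given a short RNA with little homology to human miRNAs, collected on day 7 and on day 5. No untransfected cells are among the groups, T84 is a single transformed line, and the level of the transfected miRNAs was not measured on these arrays.

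Each claudin has a known place in the permeability of an epithelium. CLDN2 and CLDN15 form pores that let small cations pass between the cells, and CLDN2 in the intestine is typical of crypts and leaky stretches. CLDN1, CLDN3, CLDN4 and CLDN7 are counted among the sealing or barrier claudins of the colon, and CLDN12 is an atypical member that lacks the C-terminal motif by which most claudins bind the scaffold protein ZO-1.

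The mature forms of the transfected miRNAs are shown because they define the treated groups, and the oligonucleotides themselves were not read. RefSeq entries (GRCh38.p14) were found for 3 of the 4 names in the labels, taking the 5p arm for miR-33a and the 3p arm for miR-210, arms that the labels do not state. Capitals mark the seed, bases 2 to 8, the stretch that mainly decides which messenger RNAs a miRNA pairs with.
hsa-miR-338-3p: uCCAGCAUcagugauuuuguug
hsa-miR-33a-5p: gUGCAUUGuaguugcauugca
hsa-miR-210-3p: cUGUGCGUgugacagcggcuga
The 3 seeds differ from each other. The sequence of miR-451 is not shown, and target sites in claudin messenger RNAs were not analysed here.

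Signals are given after each array was multiplied by 1 factor that set its mean to 500 (leaving out 2% of probe sets at each end). The factors were 3.33 for the 4-miRNA array, 3.39 for the 2-miRNA array, 6.73 for the day 7 control and 6.53 for the day 5 control, so both miRNA arrays were brighter as deposited. Brightness and miRNA treatment cannot be told apart in this design. The ratio of 3′ to 5′ signal for ACTB, a sign of RNA integrity, was 1.97, 2.28, 2.33 and 2.11 on the arrays in that order, and for GAPDH it lay between 0.951 and 1.02. All 11 markers of intestinal epithelium were above the array median on every array, with a summed signal of 214227 and 201223 on the 4-miRNA and 2-miRNA arrays, against 268926 and 198946 on the day 7 and day 5 controls. Of 9 fibroblast, 7 leukocyte and 7 endothelial markers on the array, 5, 4 and 5 were under the median on all arrays. The highest signal among these non-epithelial markers was 309, and their summed signals ranged from 520 to 856, from 220 to 547 and from 371 to 565.

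There were no replicates, so no p-value is given. A difference is the difference between arrays of log2(signal + 32), so it understates changes of dim genes, and 2-fold means a log2 difference of at least 1 in size. How far single probe sets disagree was gauged from 1736 genes with exactly 2 probe sets that averaged at least 9 on the log2 scale. This gauge cannot separate measurement error from real differences between the transcripts that the 2 probe sets read. The SD of a single probe set's log2 difference, taken from the gap between the probe sets of a gene, was 0.58 for either miRNA array against the day 5 control, 0.27 between the control arrays and 0.19 between the miRNA arrays. Variation between cultures was not measured.

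CLDN2 was the claudin that differed most. Its single probe set (223509_at) had a signal of 574 with 4 miRNAs and 745 with 2 miRNAs, against 1239 in the day 7 control and 3179 in the day 5 control. The groups stood in that order, low to high. It was above the array median (between 81.6 and 99.3) everywhere, and its highest level was 5.30-fold its lowest on the log2(signal + 32) scale. Of 12264 expressed genes, 1.08% spanned as wide a range over the 4 arrays. In RNA from whole filters, fewer cells that express a gene and less of its RNA in each cell cannot be told apart.

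Against the day 5 control, CLDN2 was lower by a log2 difference of −2.41 with 4 miRNAs and −2.05 with 2 miRNAs. These placed it 11th and 25th from the lowest of all expressed genes, of which 6.7% and 6.37% were at least 2-fold lower in those comparisons. The median gene differed by −0.15 and −0.16 there, so relative to the median gene CLDN2 stood at −2.26 and −1.89. The day 7 control was also lower than the day 5 control, by −1.34, and 2.41% of genes were at least 2-fold lower in that pair. These comparisons share the day 5 array, on which CLDN2 was highest. Set against the day 7 control instead, where day and treatment both differ, the 4-miRNA array was lower by −1.07 and the 2-miRNA array by −0.71, and 4.15% and 4.03% of genes were at least 2-fold lower in these comparisons. The −1.07 was under 2-fold with another scaling (−0.80 with a common median, −0.96 with running-median centring) and with 100 added in place of 32 (−0.99).

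No second probe set was there to check CLDN2 against. The size of its difference can be set beside the gaps between probe sets of other genes. Of the 1736 genes with a pair, 1.27% had probe sets that disagreed by 2.41 or more in the 4-miRNA comparison with the day 5 control, and 2.30% by 2.05 or more in the 2-miRNA comparison. Between the control arrays, 0.230% (4 genes) disagreed by 1.34 or more. Against the day 7 control, 12.6% disagreed by the 1.07 of CLDN2 with 4 miRNAs and 28.4% by its 0.71 with 2 miRNAs. Between the 4-miRNA and 2-miRNA arrays CLDN2 differed by −0.36, and 15.6% of pairs disagreed by that much. For scale, 1.33% of genes were at least 2-fold lower in that pair.

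**Figure D1:**
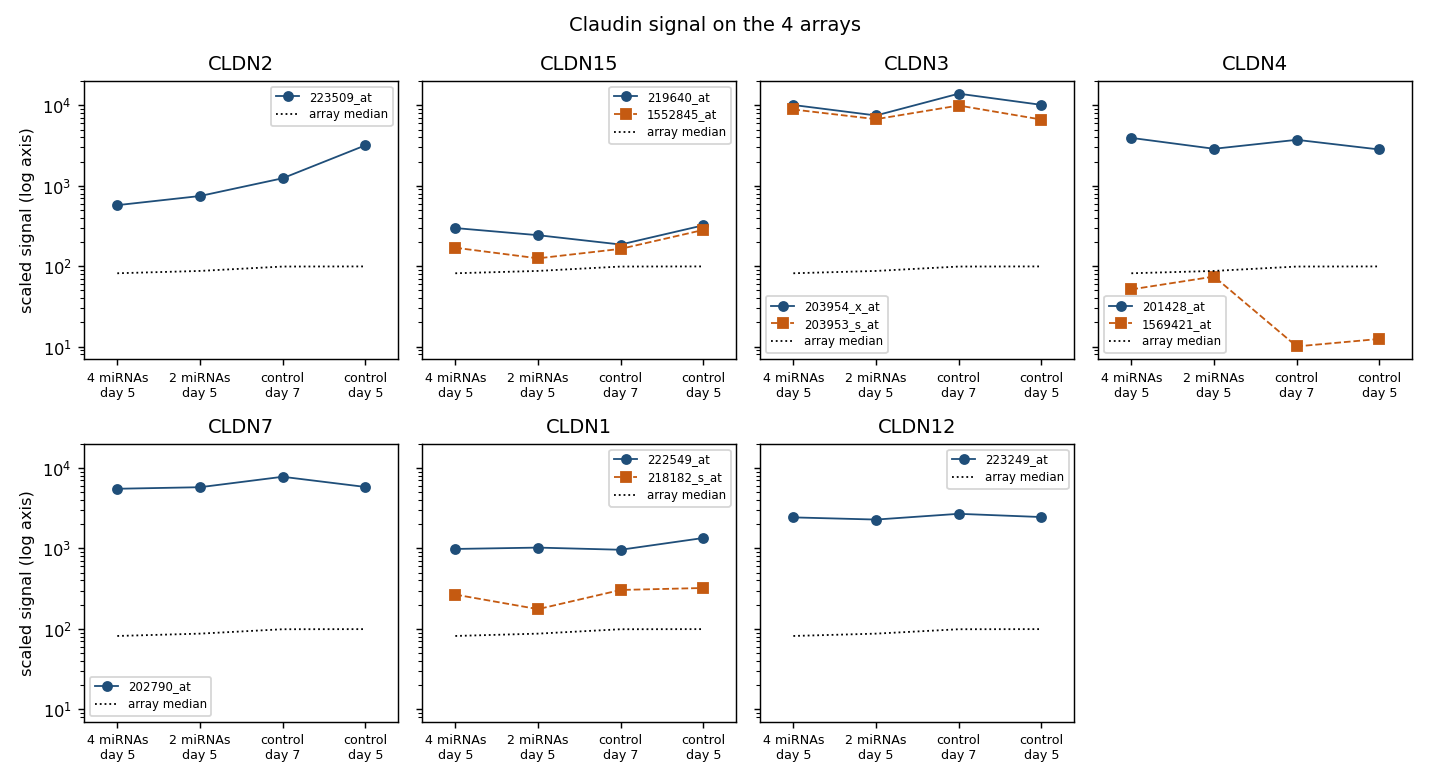
Scaled signal (log axis) of each claudin probe set in the 4 groups, with lines joining the points of a probe set and a dotted line for the array median. CLDN2 spans 574 to 3179 in signal. On the log2(signal + 32) scale the probe sets that stand for the other members span at most 1.86-fold over the arrays.

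The windows around the 2 CLDN2 start sites listed by RefSeq (250 bases before to 50 after each start, GRCh38.p14) are shown because CLDN2 carries the largest difference. Capitals mark matches, on either strand, to any of these short motifs: TTTATG and TTTATT (caudal-type homeobox factors such as CDX2), CTTTG (TCF), CAGGTG (the E-box of SNAI and ZEB repressors), ACGTG (HIF) and TGACCT (part of the vitamin D receptor's site).
CLDN2 first window, chrX:106899914-106900213, plus strand: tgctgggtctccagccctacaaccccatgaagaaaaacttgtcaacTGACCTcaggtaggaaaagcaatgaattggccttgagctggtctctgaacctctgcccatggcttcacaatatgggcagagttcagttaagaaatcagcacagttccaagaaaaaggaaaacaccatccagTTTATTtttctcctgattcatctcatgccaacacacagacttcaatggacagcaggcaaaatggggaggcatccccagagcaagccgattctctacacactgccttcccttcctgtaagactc
CLDN2 second window, chrX:106918110-106918409, plus strand: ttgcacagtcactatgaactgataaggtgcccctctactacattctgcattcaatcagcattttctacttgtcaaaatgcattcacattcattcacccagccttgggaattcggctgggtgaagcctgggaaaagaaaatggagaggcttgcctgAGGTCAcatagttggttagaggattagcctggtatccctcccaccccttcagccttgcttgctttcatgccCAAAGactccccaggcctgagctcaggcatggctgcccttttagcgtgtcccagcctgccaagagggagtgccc
The first window held TTTATT, starting 73 bases before the start site, which 17.4% of 35116 windows of the same length hold. It was the only one of the 9 windows of the 7 claudins with that motif, and none held TTTATG. Both CLDN2 windows held TGACCT or its complement, found in 13.8% of all windows, as did the CLDN4 and CLDN15 windows and both CLDN7 windows. The second CLDN2 window held CTTTG on the opposite strand, found in 47.5%. No 2 marked matches overlap in the windows of the 7 claudins. A match describes letters in the window and not binding.

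CLDN15, the other pore-forming member, was dim and was lowest on the day 7 control by the probe set that stands for it (219640_at). That probe set had 298 with 4 miRNAs and 243 with 2 miRNAs, against 186 in the day 7 control and 322 in the day 5 control. The second probe set (1552845_at) had 170, 125, 164 and 282 on the same arrays. Both were highest on the day 5 control, as CLDN2 was, and they were closest between the controls, where day 7 was lower by −0.70 and −0.68. That is under 2-fold, and 5.78% of genes were as low as the first. Against the day 5 control the 2-miRNA array was lower by −0.37 on the first probe set and −0.999 on the second, which lies just inside 2-fold. The 4-miRNA array was lower by −0.10 and −0.64. Both probe sets thus put the miRNA arrays below the day 5 control, by unequal amounts. Against the day 7 control they took opposite directions on the 2-miRNA array, at 0.33 and −0.32.

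The sealing claudins CLDN3, CLDN4 and CLDN7 were well above the array median and within 2-fold in every comparison by the probe sets that passed the filter on low signal. CLDN3, a receptor of Clostridium perfringens enterotoxin as CLDN4 is, had 10091 with 4 miRNAs and 7475 with 2 miRNAs, against 13956 in the day 7 control and 10129 in the day 5 control (203954_x_at, a type of probe set that may also bind related transcripts). Its second probe set (203953_s_at) had 8874, 6724, 9944 and 6654. Both were highest on day 7, higher than on day 5 by 0.46 and 0.58, and both were higher on the 4-miRNA than on the 2-miRNA array, by 0.43 and 0.40. They disagreed on the 2-miRNA array against the day 5 control, at −0.44 and 0.02. Against the day 7 control the 2-miRNA array was lower on both, by −0.90 and −0.56, and 5.895% of genes were at or below the first of these.

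CLDN4 (201428_at) had 3934 with 4 miRNAs and 2881 with 2 miRNAs, against 3724 in the day 7 control and 2823 in the day 5 control. The 4-miRNA array and the day 7 control were thus the brighter ones, and the 2-miRNA array and the day 5 control nearly equal (0.03). The 4-miRNA array was above the 2-miRNA array by 0.45, with 91.9% of genes at or below that difference, and above the day 5 control by 0.47. A second CLDN4 probe set (1569421_at) was under the array median on all 4 arrays, between 10.1 and 74.3, and did not pass the filter on low signal. CLDN7 (202790_at), which associates with the adhesion molecule EPCAM on the lateral membrane, had 5522 with 4 miRNAs and 5771 with 2 miRNAs, against 7783 in the day 7 control and 5815 in the day 5 control. It was higher on day 7 than on day 5 by 0.42 and differed from the day 5 control by −0.07 and −0.01 on the 4-miRNA and 2-miRNA arrays.

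CLDN3 and CLDN4 are neighbours on chromosome 7, with 0 protein-coding genes between them in RefSeq, on opposite strands. Their windows are shown because the genes lie side by side and both were higher on the 4-miRNA than on the 2-miRNA array and on day 7 than on day 5. The second CLDN7 window is shown for its E-boxes. Capitals mark the same motifs as above.
CLDN3 window, chr7:73770221-73770520, minus strand: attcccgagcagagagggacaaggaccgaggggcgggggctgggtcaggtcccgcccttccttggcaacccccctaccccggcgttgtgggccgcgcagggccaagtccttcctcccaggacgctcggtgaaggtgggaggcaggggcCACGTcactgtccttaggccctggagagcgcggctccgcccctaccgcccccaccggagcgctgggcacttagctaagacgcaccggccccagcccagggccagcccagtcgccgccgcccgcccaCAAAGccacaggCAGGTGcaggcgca
CLDN4 window, chr7:73830746-73831045, plus strand: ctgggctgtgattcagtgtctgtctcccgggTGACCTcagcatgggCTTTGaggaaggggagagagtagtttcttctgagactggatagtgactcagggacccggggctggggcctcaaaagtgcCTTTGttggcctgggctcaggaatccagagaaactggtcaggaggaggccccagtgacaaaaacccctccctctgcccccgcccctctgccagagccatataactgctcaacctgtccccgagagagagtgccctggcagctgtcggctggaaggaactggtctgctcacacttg
CLDN7 second window, chr17:7262429-7262728, minus strand: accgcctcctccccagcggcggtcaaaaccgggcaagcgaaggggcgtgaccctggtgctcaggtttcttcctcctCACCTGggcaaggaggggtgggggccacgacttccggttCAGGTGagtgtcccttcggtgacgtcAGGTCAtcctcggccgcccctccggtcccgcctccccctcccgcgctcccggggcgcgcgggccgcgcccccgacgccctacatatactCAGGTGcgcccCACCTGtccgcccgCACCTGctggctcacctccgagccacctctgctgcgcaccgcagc
The CLDN3 window held ACGTG on the opposite strand (21.4% of all windows), CTTTG on the opposite strand and 1 CAGGTG. The CLDN4 window held 1 TGACCT and 2 CTTTG, so of these motifs the pair had CTTTG in common. Besides the complement of TGACCT, the CLDN7 window held 5 matches to CAGGTG or its complement. Of all windows, 20.6% held at least 1 match to CAGGTG and 0.0940% held 5 or more. The cut-off of 5 is the count in this CLDN7 window, which was picked for its E-boxes. The share is thus a description and not a test. The repressors known to bind such E-boxes were dim: SNAI1 (9.35 to 20.5), SNAI2 (2.45 to 64.8), ZEB1 (3.86 to 57.5) and ZEB2 (3.34 to 70.9) were under the median of every array on their brightest probe set, and TWIST1 was above it on the 4-miRNA and day 5 control arrays alone, at 154 and 85.7 on the 4-miRNA and 2-miRNA arrays, against 94.9 and 151 on the day 7 and day 5 controls.

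CLDN1, a barrier-forming claudin without which mice lose water through the skin, was highest on the day 5 control. Its brighter probe set (222549_at) had 986 with 4 miRNAs and 1025 with 2 miRNAs, against 963 in the day 7 control and 1349 in the day 5 control. The 4-miRNA, 2-miRNA and day 7 arrays were each lower than the day 5 control, by −0.44, −0.39 and −0.47. The second probe set (218182_s_at) had 267 and 176 with 4 and 2 miRNAs, against 305 and 322 in the controls of day 7 and day 5. By it the 2-miRNA array was the low one, at −0.77 against the day 5 control, and the day 7 control differed by −0.07. CLDN12, which takes part in calcium passage in the intestine together with CLDN2, was the steadiest member. It had 2433 with 4 miRNAs and 2286 with 2 miRNAs, against 2696 in the day 7 control and 2457 in the day 5 control (223249_at), and 94.7% of genes had as wide or wider a range over the arrays.

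**Figure D2:**
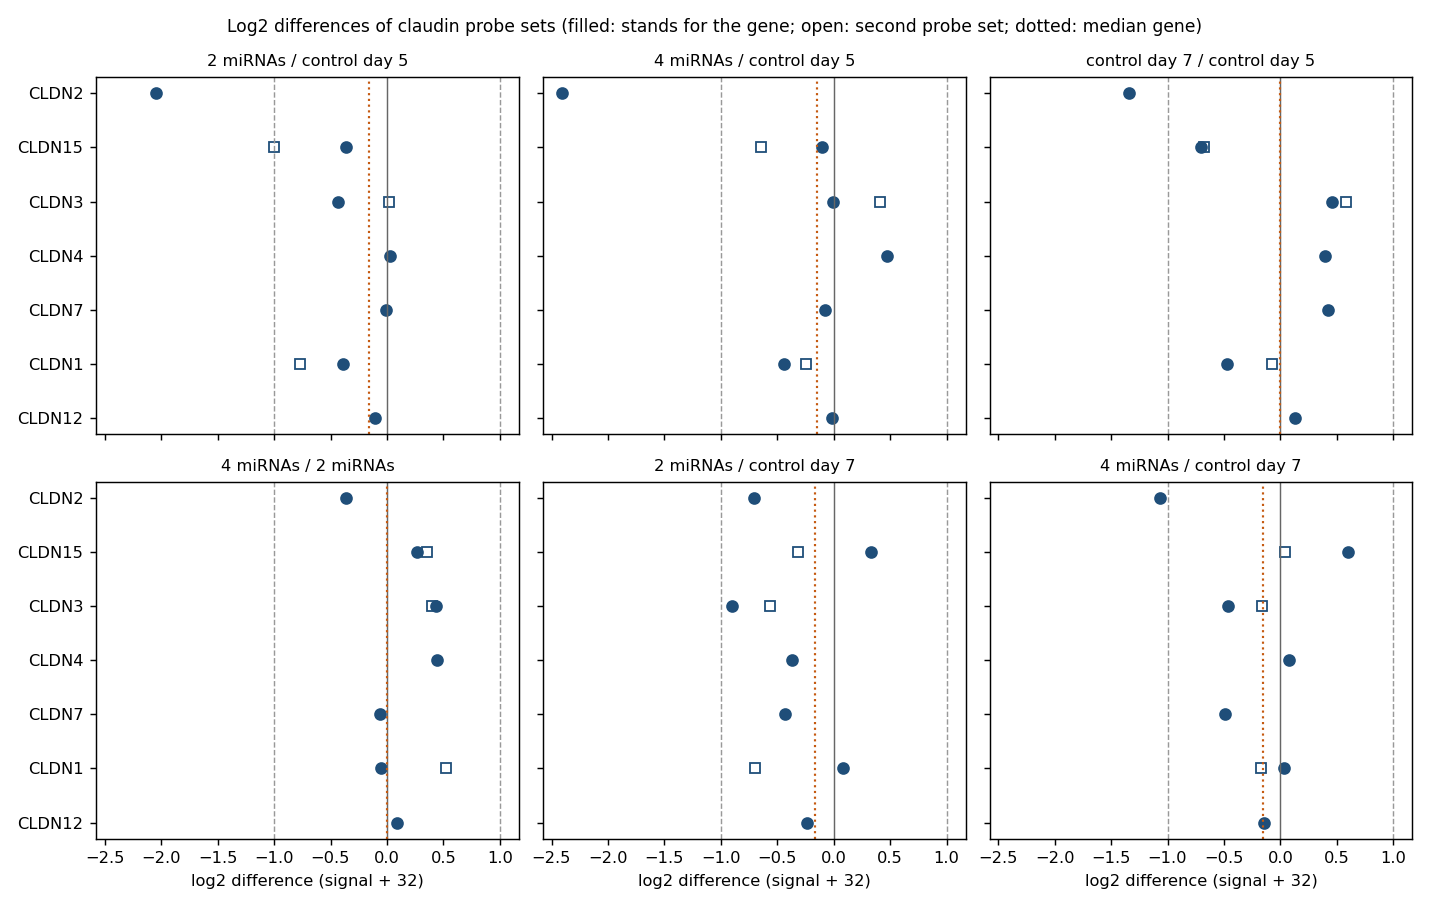
Log2 difference of each expressed claudin probe set in 6 comparisons, with filled circles for the probe set that stands for the gene, open squares for a second one, dashed lines at 2-fold and a dotted line at the median gene. CLDN2 lies past 2-fold in the comparisons of either miRNA array and of day 7 with the day 5 control, and of the 4-miRNA array with the day 7 control; the second CLDN15 probe set lies just inside 2-fold at −0.999 on the 2-miRNA array.

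The claudins took different directions from one another. On the 4-miRNA array against the day 5 control, 1 of 7 was at least 2-fold lower (CLDN2) and 0 at least 2-fold higher, beside 6.7% and 8.03% of all genes (14.7% either way). The median claudin differed by −0.07 and the median gene by −0.15, and the 6 members other than CLDN2 lay between −0.44 and 0.47. On the 2-miRNA array, 1 of 7 was again at least 2-fold lower and 0 higher, beside 6.37% and 8.11% of genes (14.5% either way), with a median of −0.37 against −0.16 for all genes. The 6 other members lay between −0.44 and 0.03. With a common median in place of the trimmed mean, the split of all genes past 2-fold changed to 1551 higher and 364 lower on the 4-miRNA array, against 985 and 822 as scaled here, and to 1341 and 425 on the 2-miRNA array, against 995 and 781. With running-median centring it was 1203 and 532, and 1200 and 535. CLDN2 stayed past 2-fold lower under both.

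Between the control arrays, 1 of 7 claudins was at least 2-fold lower on day 7 (CLDN2) and 0 at least 2-fold higher, beside 2.41% and 3.35% of genes (5.76% either way). The median claudin differed by 0.13 and the median gene by −0.01. The pore formers CLDN2 and CLDN15 and the barrier claudin CLDN1 were lower on day 7, while CLDN3, CLDN4 and CLDN7 were higher by 0.40 to 0.46 and CLDN12 by 0.13. Each of these directions held under every alternative setting that kept the gene (8 for CLDN15, 9 for the others). Changes of filter alone could not alter them, nor could medians over probe sets for genes with a single probe set. Elsewhere, some values changed sign under some settings: against the day 5 control those of CLDN3, CLDN7, CLDN12 and CLDN15 with 4 miRNAs and of CLDN7 and CLDN12 with 2, against the day 7 control those of CLDN1 and CLDN12 with 4 and of CLDN1 and CLDN4 with 2, and between the miRNA arrays those of CLDN1 and CLDN7. Of these the value of CLDN4 moved farthest, at −0.37 as reported and 0.49 with the median over all its probe sets, which counts its dim second one. Between the 4-miRNA and 2-miRNA arrays 0 of 7 were 2-fold apart in either direction, beside 1.04% of genes higher and 1.33% lower (2.37% either way), with CLDN4 (0.45), CLDN3 (0.43) and CLDN15 (0.26) on the higher side and CLDN2 (−0.36) lowest. With a common median the split of all genes in this pair was 170 higher and 136 lower, against 128 higher and 163 lower as scaled here. Against the day 7 control, CLDN2 alone was 2-fold lower with 4 miRNAs, 0 of 7 were with 2 miRNAs, and 0 were 2-fold higher with either (beside 5.63% and 6.19% of genes, and 9.78% and 10.2% either way). The split of all genes there, higher and lower, was 691 and 509 with 4 miRNAs, against 1163 and 252 with a common median and 904 and 295 with running-median centring. With 2 miRNAs it was 759 and 494, against 1050 and 296 and 947 and 337 under those settings. CLDN15 was at 0.60 and 0.33 with 4 and 2 miRNAs on the probe set that stands for it and at 0.04 and −0.32 on its second, and CLDN3 and CLDN7 were lower (−0.47 and −0.49 with 4, −0.90 and −0.43 with 2).

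**Figure D3:**
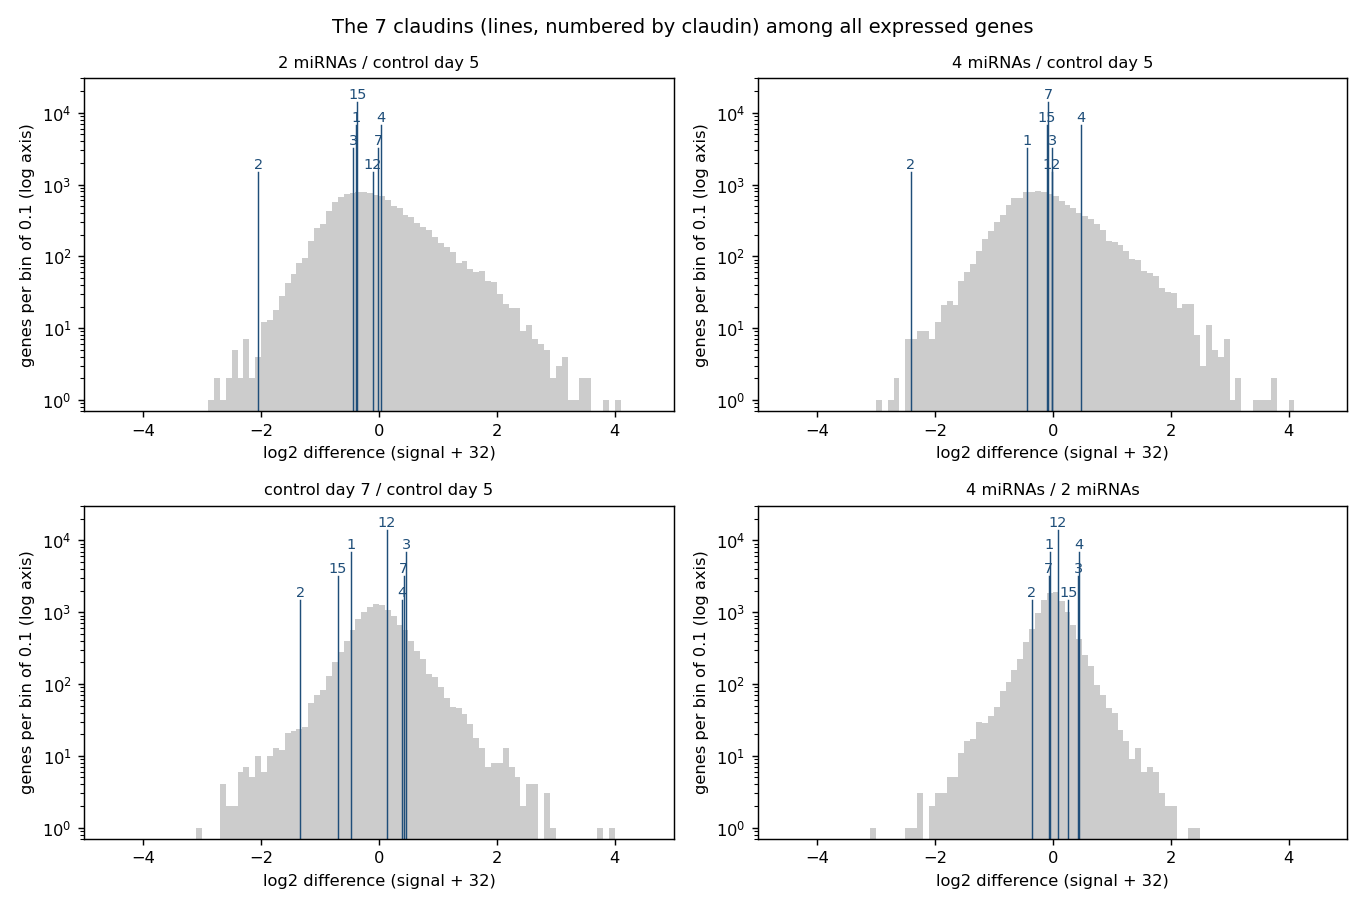
Histograms (log axis, bins of 0.1) of log2 differences of the 12264 expressed genes in 4 comparisons, with a line for each claudin marked by its number. CLDN2 stands in the lower tail in the comparisons with the day 5 control, while the other members lie in the body of the distribution; between the 4-miRNA and 2-miRNA arrays all 7 are within it.

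Profiles over the 4 arrays were compared between members by the root mean square distance of their centred log2 values, a description that rests on 4 arrays shared by every pair. Of 21 pairs, CLDN7 and CLDN12 were nearest (0.13), followed by CLDN4 and CLDN12 (0.18) and by CLDN1 and CLDN15 and CLDN3 and CLDN7 (both 0.20). The neighbouring genes CLDN3 and CLDN4 ranked 8th (0.25). The 6 widest distances were those between CLDN2 and each other member, from 0.76 for CLDN1 to 1.05 for CLDN4. CLDN2 and CLDN15, both pore formers, were 0.89 apart. The median gene had a range of 0.70 over the arrays, and of the 7 members CLDN2 (2.41) and CLDN3 (0.90) had wider ones, CLDN15 was at 0.70 and the other members were lower.

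By the same distance, among 12263 other expressed genes, the profile nearest to that of CLDN2 was that of SMOC2, a secreted calcium-binding matrix protein (0.08). SMOC2 had 101 with 4 miRNAs and 149 with 2 miRNAs, against 252 in the day 7 control and 609 in the day 5 control. Next were NUP93, a nuclear pore subunit (0.14), RGMB, a co-receptor of bone morphogenetic proteins (0.15), EMC3-AS1, an antisense transcript (0.16), and ALG12, a mannosyltransferase of protein glycosylation (0.19). NUP93 had 865 and 941 on the 4-miRNA and 2-miRNA arrays, against 1861 and 3823 on the day 7 and day 5 controls, and RGMB 734 and 872, against 1718 and 3308. EMC3-AS1 was under the median of the 4-miRNA array, and ALG12 was under the median of the miRNA arrays and of the day 7 control, so their distances rest partly on dim values. All of these genes were highest on the day 5 control and lowest on the 4-miRNA array. They were chosen for nearness to the CLDN2 profile, so this likeness is not a separate result.

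**Figure D4:**
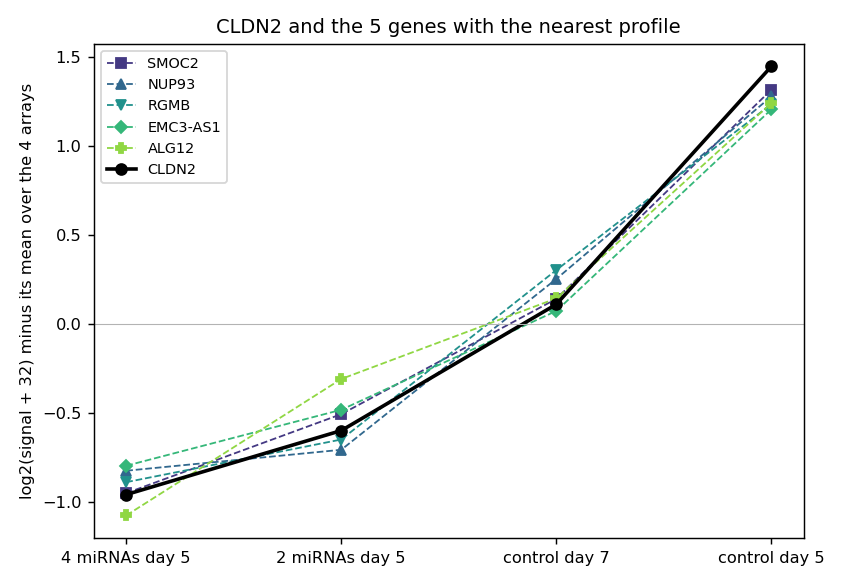
Log2(signal + 32) of CLDN2 (black) and of the 5 genes with the nearest profiles, each minus its own mean over the 4 arrays. All 6 genes are highest on the day 5 control and lowest on the 4-miRNA array, which follows from choosing the 5 by nearness to CLDN2. Lines only join the points of a gene.

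The array carries 13 other claudin genes with single symbols, on 24 probe sets. Most were dim: 14 of these probe sets were under the median on every array, among them those of the endothelial CLDN5 (14.2 to 30.1) and of CLDN8, a claudin of the distal colon (29.6 to 53.1). Only 4 genes passed the filter. CLDN23, a claudin of the surface colon epithelium, had 256 with 4 miRNAs and 320 with 2 miRNAs, against 340 in the day 7 control and 189 in the day 5 control (228707_at). It was thus lowest on the day 5 control, where CLDN2 was highest, with day 7 higher by 0.75. CLDN19, known from the kidney, had 199 and 500 on the 4-miRNA and 2-miRNA arrays, against 721 and 342 on the day 7 and day 5 controls (1554804_a_at), and was 2-fold higher on day 7 (1.01) and 2-fold lower with 4 than with 2 miRNAs (−1.20). Its other probe sets gave −0.07 and −0.01 for day 7 against day 5 and −1.11 and −0.21 for 4 against 2 miRNAs, so these differences rest on probe sets that disagree. The probe set with −1.11 was under the median of the 4-miRNA array (34.8). Taking that median as its floor, its signal was at least 1.38-fold lower there than with 2 miRNAs. Against the day 7 control, CLDN19 with 4 miRNAs was at −1.71 on the probe set that stands for it. Of all genes, 4.15% were at least 2-fold lower in that comparison. Its other probe sets were at −1.37 and 0.45. By the same kind of floor they were at least 1.72-fold lower and 1.28-fold higher with 4 miRNAs. CLDN11, the claudin of myelin and testis, and CLDN18, the stomach and lung claudin, were close to the array median. CLDN18 was under the median of the 4-miRNA array (74.6). Taking that median as its floor, its plain signal was at least 2.04-fold lower there than in the day 7 control (167). With the constant added before log2, CLDN18 differed by −0.90 in this comparison, which is under 2-fold. CLDN11 had 111 and 78.8 with 4 and 2 miRNAs, against 129 and 128 in the controls of day 7 and day 5. These values are of the probe set that passed the filter, which was under the median of the 2-miRNA array (87.3). Taking that median as its floor, its plain signal was at least 1.47-fold lower there than in either control.

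Among partners of claudins in the tight junction, 11 of 19 listed genes were expressed. On the probe sets that stand for their genes, PATJ, which scaffolds the Crumbs polarity complex, was the 1 member past 2-fold against the day 5 control. It was higher on the 4-miRNA (2.06) and the 2-miRNA array (1.96), and 0 members were 2-fold lower. Of all genes, 8.03% and 8.11% were 2-fold higher in these comparisons and 6.7% and 6.37% lower. A second PATJ probe set was under the median on both controls and was at least 2.28-fold and 3.33-fold higher than the day 5 median, and its remaining one differed by −0.03 and 0.02. CXADR, a junctional adhesion receptor, had probe sets of opposite direction. Of its 4 passing probe sets, only the one that stands for it was lower than day 5, by −0.30 on both miRNA arrays. Another had 3843 and 4324 with 4 and 2 miRNAs, against 2246 and 1540 in the controls of day 7 and day 5 (1.30 and 1.47 over day 5). The remaining ones were also higher than day 5, by 0.81 and 0.51 with 4 miRNAs and by 0.80 and 0.62 with 2 miRNAs. TJP1, the gene of ZO-1 that anchors claudins to actin, had 4413 and 4330 on the 4-miRNA and 2-miRNA arrays, against 3342 and 3005 on the day 7 and day 5 controls, a difference of 0.55 and 0.52 from day 5, while its second probe set gave −0.60 and −0.38. OCLN, the gene of occludin, had 3781 and 3502, against 3393 and 3188. CGN, the gene of cingulin, lay at −0.36 and −0.84 and its second probe set at 0.41 and −0.03. On day 7 against day 5 the probe sets that stand for the 11 partners lay above 0, with a median of 0.15, a lowest value of 0.02 and 0 past 2-fold, beside 49.3% of all genes above 0. Of all 27 passing probe sets of these genes 22 were above 0 and 5 below, those being 1 each of TJP1, OCLN, MARVELD2, MARVELD3 and MAGI3.

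Of 18 listed proteins that bind or modify claudins, 16 were expressed. On the probe sets that stand for their genes, 1 member was past 2-fold against the day 5 control. This was LNX1, a ubiquitin ligase reported to remove claudins from junctions of cultured dog kidney cells, higher by 1.09 and 1.14 with 4 and 2 miRNAs. Of all genes, 8.03% and 8.11% were 2-fold higher in these comparisons, and 14.7% and 14.5% were 2-fold apart either way. PRKCI, an atypical protein kinase C of the polarity complex, differed by −0.56 and −0.35 on the probe set that stands for it, while another had 1474 and 1222 with 4 and 2 miRNAs, against 713 and 572 in the controls of day 7 and day 5 (1.32 and 1.05 over day 5). LNX1 had 898 and 934 on the 4-miRNA and 2-miRNA arrays, against 623 and 405 on the day 7 and day 5 controls. EPCAM, the binding partner of CLDN7, had 35406 and 37349, against 28272 and 21199, which is 0.74 and 0.82 over day 5. PRSS8, a membrane serine protease, was higher on day 7 than on day 5 by 0.997, just inside 2-fold, at 2901 against 1437.

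Of 26 listed transcription regulators of claudin genes, 18 were expressed. Against the day 5 control the gut endoderm factor GATA6 was at least 2-fold higher with 4 miRNAs (1.25) and with 2 miRNAs (1.05), and CTNNB1, the gene of β-catenin, with 2 miRNAs (1.30), on the probe sets that stand for their genes. None of the 18 was 2-fold lower on either, and of all genes 8.03% and 8.11% were 2-fold higher and 6.7% and 6.37% lower with 4 and 2 miRNAs. GATA4, another endoderm factor, had 181 and 172 with 4 and 2 miRNAs, against 114 and 56.5 in the controls of day 7 and day 5. It was under the array median on the day 5 control, and taking that median as its floor it was at least 1.83-fold and 1.73-fold higher. KLF5, a zinc-finger factor of proliferating crypt cells, had probe sets that disagreed most: 1 had 9925 and 8779 with 4 and 2 miRNAs, against 1020 and 762 in the controls of day 7 and day 5 (3.65 and 3.47 over day 5), while the one that stands for the gene differed from day 5 by 0.07 and −0.38. GATA6 had 3254 and 2835 on the 4-miRNA and 2-miRNA arrays, against 1779 and 1353 on the day 7 and day 5 controls. CDX2, the intestinal homeobox factor that can drive CLDN2, had 1291 and 1296, against 1309 and 1016, which is 0.34 over day 5 on both miRNA arrays. Its second probe set had 188 and 242, against 373 and 264, and took the opposite direction (−0.42 and −0.11 from day 5). CDX1 had 3936 and 3165, against 5210 and 5056. VDR, the vitamin D receptor, which raises CLDN2 and CLDN12 in intestinal cells, had 2518 and 2471, against 2486 and 2488, on its representative probe set, while others of its probe sets differed between arrays.

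**Figure D5:**
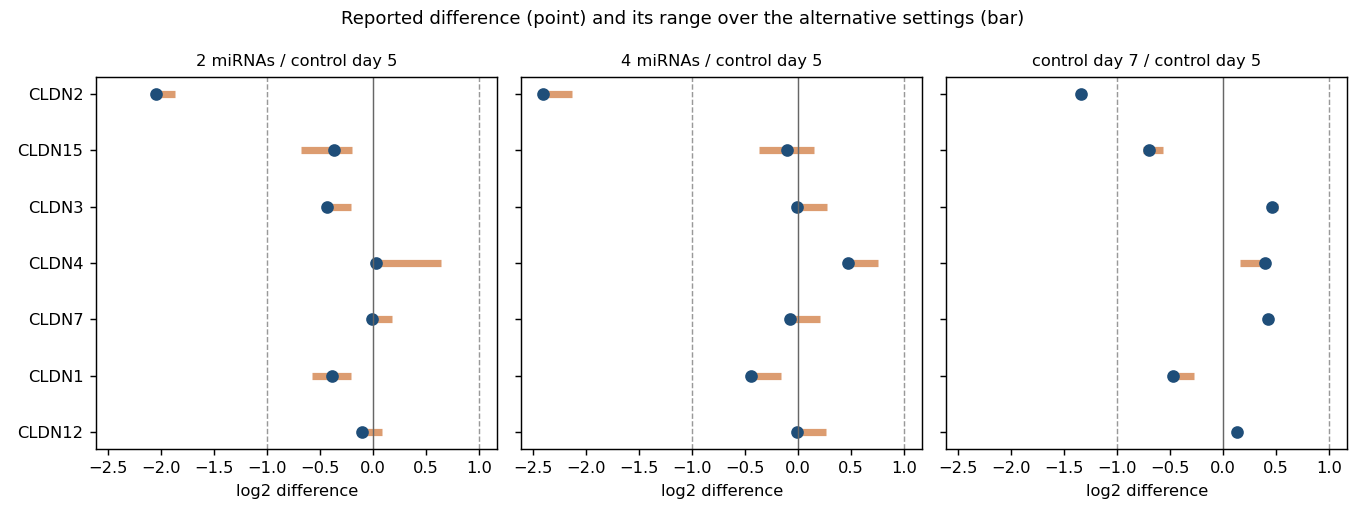
Reported log2 difference (point) of each claudin in 3 comparisons with the day 5 control and its range over the alternative settings (bar), with dashed lines at 2-fold. CLDN2 stays past 2-fold lower, at −2.44 to −2.13 on the 4-miRNA array, −2.07 to −1.86 on the 2-miRNA array and −1.35 to −1.29 on day 7. The filters and the medians over probe sets could not move CLDN2, which has a single probe set. The bars of the other members stay inside 2-fold.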

How the data were processed

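Total RNA from T84 cells on filters was hybridised to Affymetrix U133 Plus 2.0 arrays. The deposited table holds 1 linear intensity per probe set and array, which the authors made with MAS5, as the submitters' processing notes name it, with no version or target stated. Here every array was brought to a common trimmed mean (500), and 32 was added before log2. Of 54675 probe sets 41097 had 1 symbol in the platform annotation, 1801 with several were not used, and 11777 had no name here; 41043 matched RefSeq by gene ID, used for names. The filter on low signal asked for a mean log2 at or above the median over probe sets, or a value at the 75th percentile of any array; the brightest passing probe set stood for its gene, leaving 12264 genes. The text names the 7 members, every other expressed claudin, up to 4 listed genes past 2-fold and the 5 genes nearest to CLDN2; further listed genes were named after their values were seen. Members and lists were chosen with earlier results of these data known. Promoter windows and miRNAs came from RefSeq (GRCh38.p14); no coordinates of the probe sets are given. Some listed items are not reported here. Differences were computed with Python 3.11.15, numpy 2.4.6 and pandas 2.3.3 and checked on simulated arrays. The number of arrays, 4 with no replicates, limits the precision, and p-values were not computed.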

Additional observations from a re-analysis of the deposited data

How the results depend on the processing

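No paired analysis was possible because each group holds 1 array. A change of filter alone left the value of each kept claudin as it was. Medians over probe sets did so for genes with 1 probe set, such as CLDN2. Of 372 values of single claudins under the 9 alternative settings, with these fixed ones counted, 367 moved by less than the SD of a single probe set. The other 5 moved by more, and 0 of the called ones changed sign. The 5 were CLDN1 between the 4-miRNA and 2-miRNA arrays with the median over expressed or over all probe sets (0.23 under both, against −0.05) and CLDN4 with the median over all probe sets (0.64 and 0.49 for the 2-miRNA array against the day 5 and day 7 controls and 0.05 between the miRNA arrays), where its dim second probe set counts. The count of claudins 2-fold lower on the 4-miRNA array against the day 7 control was 1, and 0 with a common median, running-median centring or 100 added. The median claudin moved, with a common median, to 0.21 and 0.13 for the 4-miRNA array against the day 5 and day 7 controls and to 0.18 against the 2-miRNA array, where it was 0.23 with the median over expressed probe sets. With the 70th percentile filter, which leaves out CLDN15 and so 6 members, it was 0.0174 between the miRNA arrays and 0.26 between the controls. A common median also moved the median of all genes from −0.15 to 0.12 and from −0.16 to 0.01 for the 4-miRNA and 2-miRNA arrays against the day 5 control. The counts of all genes 2-fold higher ranged over the settings from 580 to 1608 and from 574 to 1611 in these comparisons, and those lower from 364 to 1977 and from 391 to 1983. They ranged from 15 to 701 and 23 to 705 between the miRNA arrays, from 148 to 1485 and 43 to 1331 between the controls, and against the day 7 control from 389 to 1320 and 154 to 1667 (4 miRNAs) and 446 to 1391 and 157 to 1670 (2 miRNAs). The cause was not tested, beyond the smaller or larger number of genes the filters leave (8821 with the 70th percentile, 19775 with none).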
